A study of Homo sapiens with 6 samples.

Results

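The genes examined here are 10 genes typical of the response to interferon gamma and of its transcription factor IRF1, namely IRF1, GBP1, GBP2, GBP3, GBP4, IDO1, CXCL10, CXCL11, IFNGR1 and IFNGR2. They were selected by symbol, with no measured value in the rule. These genes, and the lists used below, were however chosen with earlier results of these data known. Of the 10, 8 had a row among the 26899 genes of the count table, and 7 had enough reads to be tested among 15299 genes. IDO1 and CXCL11 had no row, so their expression was not analysed here. CXCL10 had 1 read in all libraries together and was not tested.

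The libraries came from HK-2, an established human kidney proximal tubule line immortalised with human papillomavirus 16. There were 3 libraries labelled control and 3 labelled ANXA2 knockdown, numbered 1 to 3 in each group, and the cells of both groups were cultured alike and transfected with plasmid by a lipid reagent. The control cells are called wild type in the titles and shCtrl in the descriptions, so whether they carried a control hairpin is not settled. Polyadenylated RNA was sequenced, and the number of hairpins, the time after transfection and whether the replicates were separate cultures are not stated in the labels.

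Interferon gamma is released mainly by T cells and natural killer cells. It binds a receptor built of IFNGR1 and IFNGR2, whose kinases JAK1 and JAK2 pass the signal to the nucleus. There it acts through the gamma activated site in promoters and switches on IRF1, which in turn acts on genes such as the guanylate-binding proteins, IDO1 and the chemokines CXCL10 and CXCL11. Type I interferon acts through another receptor and mainly through the interferon stimulated response element. The 2 programmes overlap, and NF-kB can also raise IRF1, CXCL10 and the guanylate-binding proteins.

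In order to show matches to simple forms of known regulatory elements, the 250 bases upstream of the RefSeq start site (GRCh38.p14) are given for 4 genes. These are IRF1, the neighbours GBP1 and GBP3, and CXCL10. All 4 genes lie on the minus strand, and the sequences run 5′ to 3′ along that strand. The windows are chr5:132490774-132491023 for IRF1, chr1:89065209-89065458 for GBP1, chr1:89022867-89023116 for GBP3 and chr4:76023498-76023747 for CXCL10. Capitals mark a match to the gamma activated site TTCNNNGAA, to the response element core GAAANNGAA or to the kappa B core GGANNTTCC, each searched on both strands.
IRF1: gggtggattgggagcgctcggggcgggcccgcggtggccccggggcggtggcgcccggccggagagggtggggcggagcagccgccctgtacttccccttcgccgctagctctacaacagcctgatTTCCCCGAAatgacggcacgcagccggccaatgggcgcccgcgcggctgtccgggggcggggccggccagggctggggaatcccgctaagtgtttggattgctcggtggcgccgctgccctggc
GBP1: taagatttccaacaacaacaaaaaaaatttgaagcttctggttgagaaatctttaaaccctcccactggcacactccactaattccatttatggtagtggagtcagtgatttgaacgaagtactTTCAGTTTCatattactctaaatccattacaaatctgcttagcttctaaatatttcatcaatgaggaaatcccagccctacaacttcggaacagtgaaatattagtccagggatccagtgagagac
GBP3: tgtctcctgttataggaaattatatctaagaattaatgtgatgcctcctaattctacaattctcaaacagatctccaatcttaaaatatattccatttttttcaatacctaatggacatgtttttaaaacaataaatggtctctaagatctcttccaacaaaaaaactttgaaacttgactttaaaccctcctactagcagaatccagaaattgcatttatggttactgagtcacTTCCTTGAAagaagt
CXCL10: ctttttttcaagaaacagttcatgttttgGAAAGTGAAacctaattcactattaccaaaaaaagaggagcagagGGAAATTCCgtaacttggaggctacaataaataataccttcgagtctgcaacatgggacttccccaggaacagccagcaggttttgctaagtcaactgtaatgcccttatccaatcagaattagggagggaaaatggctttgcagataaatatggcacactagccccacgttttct

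The IRF1 window held 1 gamma activated site, from base -124 to -116 relative to the start. The GBP1 window held 1 response element core on its minus strand, from -126 to -118, and the GBP3 window held 1 gamma activated site from -15 to -7. CXCL10 held a response element core from -221 to -213 and a kappa B core from -176 to -168, which matched on both strands. Promoter windows were at hand for 8 of the 10 genes, with 2 windows for IFNGR1, and GBP2 and IDO1 had none. Of these 9 windows, 3 held the gamma activated site (IRF1, GBP3 and CXCL11), 2 the response element core (CXCL10 and GBP1) and 4 the kappa B core (CXCL10, CXCL11, GBP4 and IFNGR2). Among 34788 distinct RefSeq windows of the same length the shares were 6.57%, 6.89% and 3.85%. A match is a run of letters and not a measured binding site. Only these exact patterns were searched, so letters left in lower case can still hold other spellings of the same elements. The absence of a kappa B match in the IRF1 window, or of a second in CXCL10, is therefore no sign that the element is missing.

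The libraries were first compared as a whole. Depth ranged from 24231267 to 34561675 counted reads, so that 3 reads corresponded to 0.0879 to 0.123 CPM in a library, counting error only. CPM here are reads scaled to a common library size. The targeted gene ANXA2, which encodes a calcium-dependent phospholipid-binding protein, averaged 1598 ± 119 CPM over the control label and 1539 ± 21.3 CPM over the knockdown label (SD, n = 3). In edgeR this was a log2 fold change of -0.05 (SE 0.075, adjusted p = 0.848), with a 95% interval of -14.3% to 8.29%. ANXA2 was thus not lower beyond the spread between libraries, and the groups are called by their labels throughout. Of 13 renal epithelial markers, 7 had a mean of at least 1 CPM, among them PAX8, KRT8 and GGT1, while the mature tubule genes LRP2, CUBN, AQP1, ANPEP, SLC34A1 and SLC5A2 lay under 1 CPM. Of 11 leukocyte markers, 8 had no row. The other 3 (CD14, ITGAM and CSF1R) summed to 1.65 to 3.53 CPM under the control label and 2.6 to 4.66 CPM under the knockdown label. Mitochondrial genes took 6.01% to 6.5% of reads under the control label and 5.26% to 5.6% under the knockdown label, without overlap. The part of these differences in the results below was not tested.

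None of the 7 tested genes differed between the labels past an adjusted p of 0.05 in edgeR's quasi-likelihood test. The background was 0% of 15299 genes under the same call, with 8.18% at an unadjusted p under 0.05 (3.86% with an estimate above 0), where GBP1 was the 1 member. DESeq2 also called 0 of the 7, against a background of 0.207%. Estimates were above 0 for 6 of the 7, where 49% of all tested genes had estimates above 0, and only GBP4 was below 0. The median log2 fold change was 0.12 over the 7 genes and -0.0065 over all tested genes. GBP1 was the 1 gene of the 7 with groups that did not overlap, where 15.6% of all tested genes had groups that did not overlap in either direction, 7.94% with the knockdown label higher and 7.7% with it lower. A share of 1 in 7 is near that background.

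**Figure D1:**
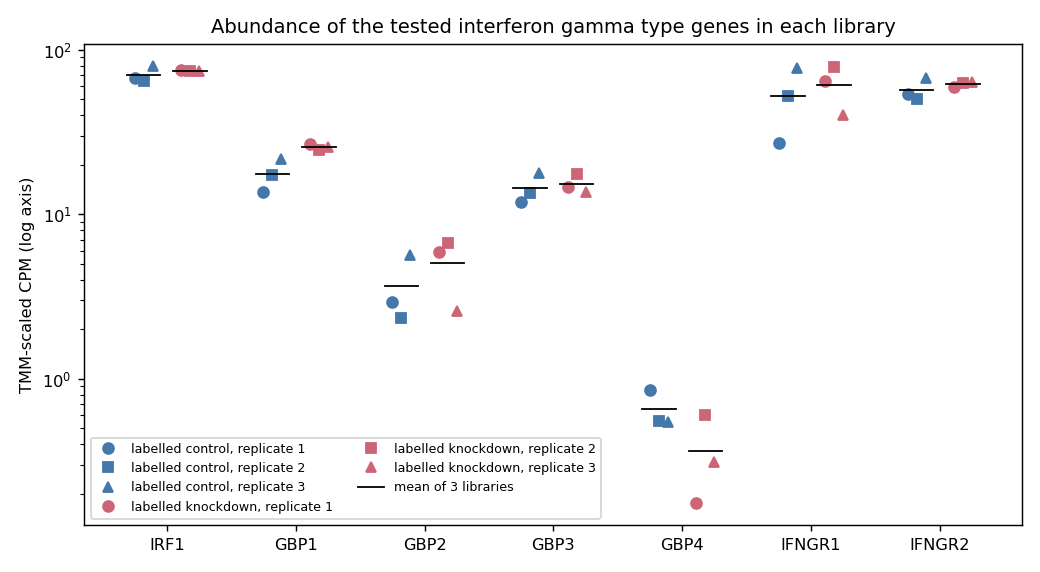
TMM-scaled CPM on a log axis for the 7 tested genes in each of the 6 libraries, with blue points for libraries labelled control, red points for those labelled knockdown, a marker shape per replicate and a line at the mean of 3 libraries. GBP1 is the gene whose red points all lie above the blue points, and the red points of IRF1 sit between 73.8 and 75.0 CPM inside the blue range of 64.4 to 79.7 CPM.

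In order to examine the receptor, its 2 chains were considered first. IFNGR1 (ENSG00000027697.12, GRCh38 chromosome 6 from 137197483 to 137219449, minus strand) encodes the chain that binds the ligand. It reached 27.2, 52.4 and 76.8 CPM in control replicates 1, 2 and 3, and 64.3, 78.2 and 39.9 CPM in knockdown replicates 1, 2 and 3. The groups overlapped over most of their range, and the lowest libraries were control replicate 1 and knockdown replicate 3. In edgeR the log2 fold change was 0.22 (SE 0.345, adjusted p = 0.866), and the 95% interval spanned -32% to 99.8%. Single libraries decided that estimate, which was -0.085 without control replicate 1, 0.61 without control replicate 3, 0.0015 when knockdown replicate 2 was left out and 0.45 without knockdown replicate 3.

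IFNGR2 (ENSG00000159128.14, chromosome 21 from 33403413 to 33479348, plus strand) encodes the second chain, which is needed for signalling. Its values were 53.7, 50 and 67 CPM in the libraries labelled control and 59.1, 62.9 and 63.4 CPM in those labelled knockdown, and all 3 knockdown values lay within the control range. Its edgeR estimate was 0.12 on the log2 scale (SE 0.125, adjusted p = 0.797), with a 95% interval of -10.7% to 32.1%. Without control replicate 2 the estimate was 0.034, and without control replicate 3 it was 0.25. TMEM50B overlaps the annotated gene on the opposite strand and held 317 to 392 reads per library against 1311 to 2087 for IFNGR2. The library kit was directional, but whether counting used the strand is not stated.

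The ratio of the chains varied widely within both groups. IFNGR1 had 0.506, 1.05 and 1.15 reads per IFNGR2 read in the libraries labelled control and 1.09, 1.24 and 0.629 in those labelled knockdown, with an exact two-sided permutation p of 0.6, and a design of 3 against 3 cannot go below 0.1. This ratio and those below were chosen after their values were seen.

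IRF1 (ENSG00000125347.13, chromosome 5 from 132440440 to 132508719, minus strand) encodes the transcription factor that interferon gamma induces early and that drives the later genes of the programme. It had 1643, 2106 and 2483 reads in the libraries labelled control and 2558, 2438 and 2152 reads in those labelled knockdown. After scaling these were 67.4, 64.4 and 79.7 CPM against 75.0, 73.8 and 74.5 CPM, so the libraries labelled knockdown lay close together and inside the control range. The difference was 0.08 on the log2 scale (SE 0.108, adjusted p = 0.846 in edgeR). Its 95% interval of -10.7% to 24.9% makes IRF1 the most narrowly bounded of the 7 genes. Leaving out 1 library gave 0.019 (without control replicate 2) to 0.18 (without control replicate 3). The antisense gene IRF1-AS1 overlaps it and held 59 to 118 reads per library.

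The guanylate-binding proteins are interferon-induced GTPases that attack intracellular microbes and their vacuoles. Their genes form a cluster on chromosome 1, where GBP3, GBP1, GBP2 and GBP4 follow each other on the minus strand between positions 89006679 and 89198942. Because the paralogs are alike, windows of 100 bases of their GENCODE transcripts were searched in all other genes. None of the GBP3 windows, 0.867% of those of GBP1 (in the pseudogene GBP1P1), 7.21% of those of GBP2 (in GBP7) and 0.0973% of those of GBP4 occurred elsewhere. Neither the read length nor the handling of reads that match several genes is stated.

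GBP1 (ENSG00000117228.9, from 89051882 to 89065360) carried the largest estimate of the 7 above 0. It had 331, 564 and 672 reads in the libraries labelled control and 910, 810 and 741 reads in those labelled knockdown. These were 13.6, 17.3 and 21.6 CPM against 26.7, 24.5 and 25.7 CPM, and the lowest library labelled knockdown lay above the highest labelled control. The means were 17.47 ± 4.01 CPM and 25.62 ± 1.07 CPM (SD, n = 3), with an exact two-sided permutation p of 0.1, the smallest possible. In edgeR the estimate was 0.55 on the log2 scale (SE 0.169), and its unadjusted p of 0.0097 became an adjusted p of 0.599 over all genes. The 95% interval ran from 12.4% to 90.9%, not adjusted for the number of genes.

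The GBP1 estimate was above 0 under each of its 18 alternatives. Its lowest was 0.40 (control replicate 1 left out) and its highest 0.73 (control replicate 3 left out). The adjusted p of GBP1 lay between 0.106 and 0.988. The 0.106 came from edgeR without the low-count filter, a fit not relied on here, and the next lowest was 0.302 in DESeq2. The GBP1 transcript is poor in G and C at 40.3%, just under the 40.6% that bounds the GC-poorest class of tested genes. GBP3 at 40% and IFNGR1 at 40.2% fell in the same class, so this trait was not particular to GBP1. The balance of GC-poor against GC-rich genes was -0.195 to -0.099 (log2 CPM) under the knockdown label and -0.0837 to 0.415 under the control label. With an offset for GC content (chosen after seeing the data) the GBP1 estimate was 0.68 with an adjusted p of 0.742.

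GBP2 (ENSG00000162645.12, from 89106132 to 89150456) had a similar estimate without a separation of the groups. Its values were 2.95, 2.33 and 5.68 CPM in the libraries labelled control and 5.92, 6.66 and 2.60 CPM in those labelled knockdown. Control replicate 3 was high and knockdown replicate 3 low, so each group spanned both levels. In edgeR the estimate was 0.47 on the log2 scale (SE 0.417, adjusted p = 0.754), with an interval of -27.8% to 166%. Leaving out control replicate 3 gave 0.95 and leaving out knockdown replicate 3 gave 0.78, while leaving out control replicate 2 or knockdown replicate 2 gave 0.23.

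GBP3 (ENSG00000117226.11, from 89006679 to 89022894) had 11.8, 13.4 and 17.9 CPM in the libraries labelled control and 14.6, 17.6 and 13.6 CPM in those labelled knockdown. All 3 knockdown values lay within the control range. Its edgeR estimate of 0.09 (SE 0.186, adjusted p = 0.906) was -0.03 without control replicate 1, -0.021 without knockdown replicate 2 and 0.28 without control replicate 3. GBP1 was therefore compared with its neighbour within each library. There were 1.15, 1.29 and 1.21 GBP1 reads per GBP3 read in the libraries labelled control and 1.82, 1.40 and 1.88 in those labelled knockdown. These ratios did not overlap, and their exact permutation p was 0.1, the smallest possible. They hold the same GBP1 reads, whose groups already did not overlap, so they are no separate support. GBP2 reads per GBP3 read were 0.249, 0.174 and 0.318 in the libraries labelled control and 0.405, 0.379 and 0.19 in those labelled knockdown. These overlapped, with an exact permutation p of 0.3.

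GBP4 (ENSG00000162654.8, from 89181144 to 89198942) was the rarest of the tested genes and the 1 with an estimate below 0. It had 21, 18 and 17 reads in the libraries labelled control and 6, 20 and 9 reads in those labelled knockdown. Knockdown replicate 2 lay within the control range at 0.606 CPM, and knockdown replicates 1 and 3 lay below it at 0.176 and 0.312 CPM. In edgeR this gave -0.82 on the log2 scale (SE 0.594, adjusted p = 0.709), with an interval of -77.7% to 42.8%. It became -1.4 when knockdown replicate 2 was left out and -0.49 when knockdown replicate 1 was, and counts this low limit it.

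The chemokines and IDO1 are the genes that mark a strong interferon gamma response. CXCL10 (ENSG00000169245.5, chromosome 4 from 76021118 to 76023497, minus strand), which draws T cells through the receptor CXCR3, had 1 read in knockdown replicate 1 and 0 reads in the other 5 libraries. The upper ends of the exact two-sided 95% Poisson intervals on its level were 0.058 CPM (libraries labelled knockdown) and 0.0418 CPM (labelled control), counting error only. CXCL10 was thus at or under the detection floor in both groups and no fold change is given.

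**Figure D2:**
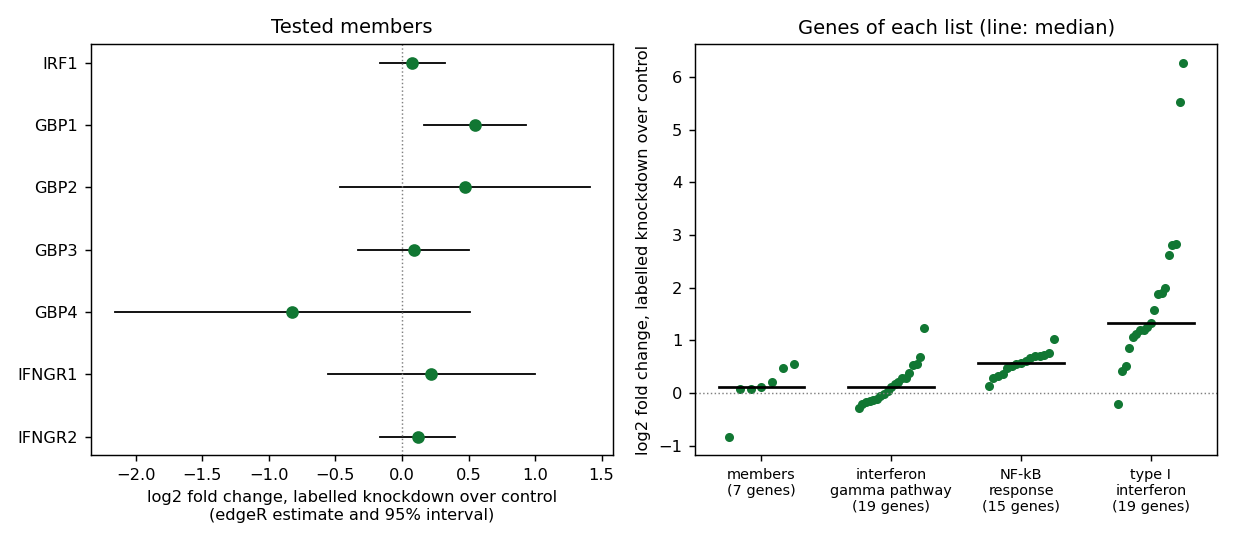
Left, edgeR log2 fold changes of the 7 tested genes with 95% intervals, where only the interval of GBP1 lies wholly above 0. Right, log2 fold changes of single genes (points) in 4 lists with a line at each median, which is 0.12 for the members, 0.11 for the interferon gamma pathway, 0.57 for the NF-kB response and 1.34 for type I interferon genes.

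Levels of the genes were ordered on the FPKM scale, which corrects for length. Means over the 6 libraries were 24.9 FPKM for IFNGR1, 24.6 for IFNGR2, 18 for IRF1, 6.7 for GBP1, 4.56 for GBP3, 1.85 for GBP2 and 0.0783 for GBP4. IFNGR1 exceeded IFNGR2 in 4 of 6 libraries, so the receptor chains were not told apart, whereas each later pair of neighbours kept its order in 6 of 6 libraries. The receptor and IRF1 transcripts were therefore present in every library, labelled control included, while CXCL10 was at the floor.

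In order to place these genes in their pathway, 30 further genes of interferon gamma signalling were listed. Of these, 24 had a row and 19 were tested. None passed the adjusted threshold, 11 had estimates above 0 and 8 below, the median log2 fold change was 0.11, and 5 did not overlap between groups, all with the libraries labelled knockdown higher (7.94% of all tested genes). At an unadjusted p under 0.05 in edgeR there were 5 as well, though not the same 5, each with an estimate above 0 (3.86% of all tested genes). ICAM1 was among these at 0.034 with groups that overlapped, whereas NLRC5, with groups that did not, stood at 0.095. IFNG itself, IRF8, CXCL9 and GBP7 had no row and were not analysed here. GBP5 and GBP6 had 3 and 2 reads over all libraries, and CIITA, the master regulator of MHC class II genes, had 16.

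The receptor's kinases were named for their role after their values were seen. JAK1 had 334.9 ± 103 CPM in the libraries labelled control and 310.6 ± 112 CPM in those labelled knockdown (SD, n = 3). JAK2 was scarce, with 0.948 ± 0.321 CPM against 0.9114 ± 0.265 CPM in the same order. The groups of both genes overlapped. All 5 inhibitors tested (SOCS1, SOCS3, PTPN2, PIAS1 and IRF2) also overlapped, with estimates from -0.17 for PTPN2 to 0.39 for SOCS1.

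The 5 pathway genes with groups that did not overlap were 2 transcription factors and 3 effectors. BATF2, a factor that partners IRF1, had 0.5262 ± 0.06 CPM in the libraries labelled control and 1.247 ± 0.532 CPM in those labelled knockdown, with a log2 fold change of 1.24 and an adjusted p of 0.605 in edgeR. TAP1, a subunit of the peptide transporter for MHC class I, had 45.29 ± 10.1 CPM and 65.54 ± 10.2 CPM, a log2 fold change of 0.53 and an adjusted p of 0.599. PSMB9, an immunoproteasome subunit, and NLRC5, the class I transactivator, had log2 fold changes of 0.29 and 0.30, with adjusted p of 0.608 and 0.636 in edgeR. WARS1, the tryptophanyl-tRNA synthetase, had 0.20 with an adjusted p of 0.608. Each of TAP1, PSMB9 and NLRC5 serves MHC class I presentation, which type I interferon is also known to raise.

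ICAM1, an adhesion molecule that both interferon gamma and NF-kB induce, had the second largest estimate of the pathway at 0.69, with an adjusted p of 0.605 in edgeR. Its values were 215, 206 and 382 CPM in the libraries labelled control and 460, 546 and 285 CPM in those labelled knockdown, so the groups overlapped.

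The 10 genes were chosen to be set against the type I pattern, and the type I list was chosen with earlier results of these data known. Of 20 type I interferon genes listed, 19 were tested, 18 had estimates above 0, 14 did not overlap between groups with the libraries labelled knockdown higher (7.94% of all tested genes), and the median log2 fold change was 1.34. None passed an adjusted p of 0.05 in edgeR, 17 had an unadjusted p under 0.05 with an estimate above 0 (3.86% of all tested genes), and 12 passed in DESeq2 (0.207% of all genes it tested). The largest estimates were those of MX2, OAS2 and IFI27. MX2, an antiviral GTPase, had 0, 1 and 0 reads in the libraries labelled control and 34, 27 and 50 in those labelled knockdown. OAS2, which makes the activator of RNase L, had 7, 1 and 3 reads against 193, 99 and 274 reads. IFI27 had 7, 10 and 12 reads against 59, 36 and 123 reads. Estimates of the type I list ran from -0.21 to 6.27 (MX2, a fitted value that depends on the prior count, with 1 read in all libraries labelled control) and those of the 7 genes from -0.82 to 0.55, so the ranges overlapped. The lists themselves were not tested against each other.

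The variation within groups was then compared with that of NF-kB target genes. The mean log2 CPM of 15 tested NF-kB genes was 4.57, 5.81 and 6.90 in control replicates 1, 2 and 3 and 6.90, 7.17 and 5.45 in knockdown replicates 1, 2 and 3. The groups overlapped, and control replicate 1 and knockdown replicate 3 were the lowest of their groups. All 15 genes had estimates above 0 with all 6 libraries, none passed an adjusted or unadjusted p of 0.05 in edgeR, and none had groups that did not overlap. The median of 0.57 was 0.21 without control replicate 1, 0.39 without control replicate 2, 0.27 when knockdown replicate 2 was left out, 0.92 without knockdown replicate 3 and 1.06 without control replicate 3. The 3 with the largest estimates were CXCL3, TNFAIP3 and CXCL2 at 1.03, 0.76 and 0.72. TNFAIP3, which encodes the feedback inhibitor A20, spanned 53.7 to 212 CPM in the libraries labelled control and 81.6 to 310 CPM in those labelled knockdown.

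IFNGR1 ranked the 6 libraries in the same order as the NF-kB mean, from control replicate 1 as the lowest to knockdown replicate 2 as the highest. Relative to its own mean over the libraries, IFNGR1 stood at -0.96 in control replicate 1 and -0.41 in knockdown replicate 3 on the log2 scale, where the NF-kB mean stood at -1.56 and -0.68. GBP2 was likewise low at -0.61 in knockdown replicate 3, where the type I mean was at its highest of 1.43. GBP1 stood at 0.35, 0.23 and 0.29 in knockdown replicates 1, 2 and 3, so it was not low in replicate 3, and in the libraries labelled control it stood at -0.63, -0.28 and 0.04, in the order of the NF-kB mean. The part of either programme in the GBP1 estimate was not tested.

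**Figure D3:**
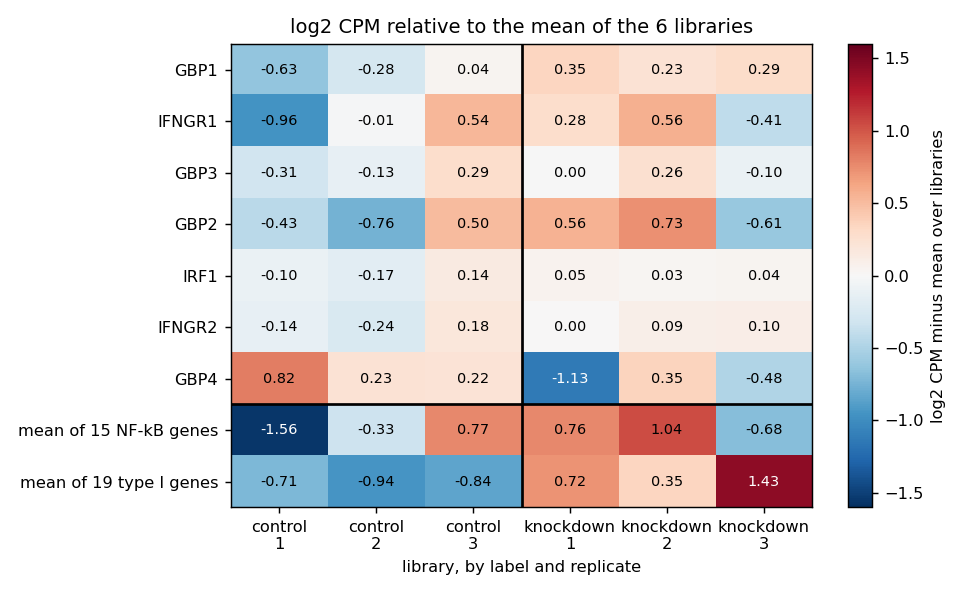
Each cell gives log2 CPM (prior count of 2) minus the mean of that gene or list over the 6 libraries, with the 7 tested genes above the black line and the NF-kB and type I list means below it, and with libraries labelled control left of the vertical line. The type I row is below 0 in all 3 libraries labelled control and above 0 in all 3 labelled knockdown. The rows of IFNGR1 and GBP2 have the sign of the NF-kB row in each of the 6 libraries, with IFNGR1 only at -0.01 in control replicate 2. The GBP3 row departs from that sign only in knockdown replicate 1, where its value rounds to 0.

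Genes with the profile most like that of IRF1 and GBP1 were sought among 10539 genes with a mean of at least 5 CPM, by Pearson correlation of log2 CPM over the 6 libraries, as a description. For IRF1 these were ZNF526 (r = 0.991), VPS37B (0.986) and MSRA (0.984). For GBP1 they were CHMP6 (0.996), CDK20 (0.992) and RSL1D1 (0.987). None of these 6 genes is in the lists above. Each was picked as among the highest of 10539 values over only 6 libraries, so a high r here is no measure of shared regulation. By rank (Spearman) the correlation was 0.771 for MSRA with IRF1 and at least 0.943 for the others. CXCL10 was too rare to be compared.

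**Figure D4:**
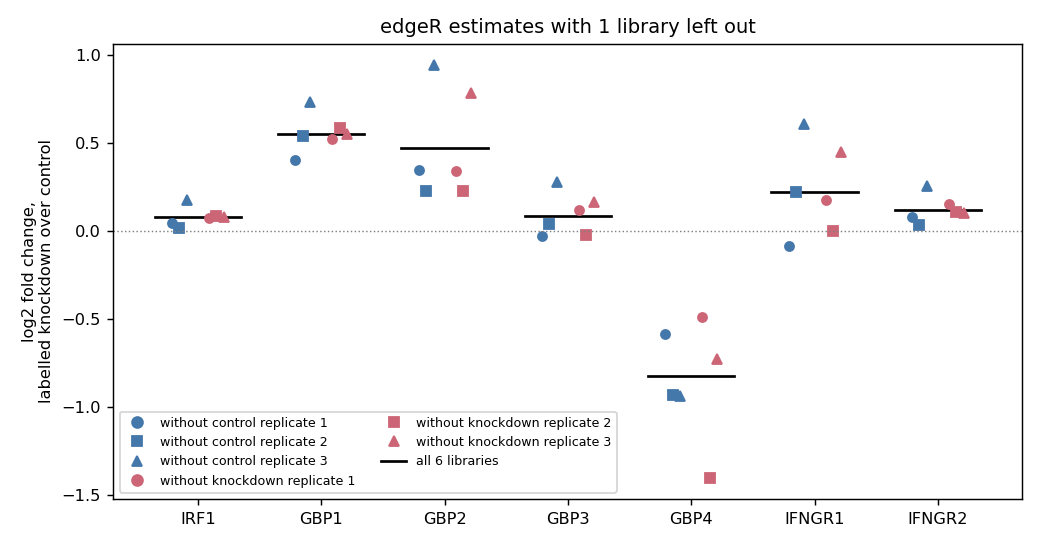
edgeR log2 fold changes of the 7 tested genes with all 6 libraries (black line) and with each library left out in turn (blue for a library labelled control, red for one labelled knockdown, a marker shape per replicate). GBP1 stays between 0.40 and 0.73 and IRF1 between 0.019 and 0.18, while IFNGR1 and GBP3 cross 0.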

How the data were processed

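RNA of 6 HK-2 libraries was analysed from 2 deposited tables. The authors deposited raw read counts per gene, not normalised, and FPKM values rounded to 2 decimals. The submitters' processing notes name bcl2fastq, TopHat2, edgeR and the build GRCh38, with no versions, and the annotation, counting program and strand setting are not given in these sources. Locations are those of GENCODE release 44 on GRCh38, in which 97.12% of the gene identifiers were found. Promoters are from RefSeq.

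The quasi-likelihood test was that of edgeR 4.0.16 (R 4.3.3) on these counts, with TMM scaling and its default low-count filter (minimum count 10, total 15), on all 6 libraries without covariates. Tests were two-sided with Benjamini-Hochberg adjustment over 15299 genes and a threshold of 0.05. CPM are TMM-scaled, over reads in the tested genes. Alternatives used DESeq2 1.42.0 and limma 3.58.1 among others, and limma on FPKM used log2(FPKM + 1) or log2(FPKM + 0.1). Code was tested on simulated data. Replicates differed beyond sampling noise (chi-square per degree of freedom 9.64 to 49.7), and since the labels do not say that they were separate cultures, p-values measure only the spread between these libraries.

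The genes and lists were chosen with earlier results of these data known. List genes named for their values were those without overlap between groups or with the largest estimates (interferon gamma pathway) and the 3 largest estimates (type I and NF-kB lists). Kinases and inhibitors of the pathway were named for their role, and some pathway genes with no row or few reads were named too. The GC offset was added after seeing the data, and protein sequences were not used here. Some genes of the lists are counted but not reported singly here.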

Additional observations from a re-analysis of the deposited data

How the results depend on the processing

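All 18 alternatives left 0 of the 7 tested genes past an adjusted p of 0.05. Of 125 estimates of single genes under alternatives, 122 kept their direction, 0 passed the threshold and 3 changed sign, namely GBP3 without control replicate 1 (-0.03022) or knockdown replicate 2 (-0.02099) and IFNGR1 without control replicate 1 (-0.08455, with 0.61 as the highest when 1 library was left out). The number of estimates above 0 was 4 to 6 and the median was 0.0384 (without control replicate 2) to 0.278 (without control replicate 3). The pathway median was 0.043 to 0.224 with 1 library left out. GBP4 could not be tested with a filter at a mean of 1 CPM, and on log2(FPKM + 1) its estimate was -0.058, since that scale understates changes of low genes. The GC offset, added after seeing the data, moved ANXA2 to 0.03089, while leaving out 1 library gave -0.1133 to -0.01746. Why the sign turned was not tested. For all genes, edgeR called 0 (1251 at an unadjusted p under 0.05), and 165 of 26899 genes without the low-count filter. DESeq2 called 32, and edgeR called 0 to 4 with 1 library left out, the 4 without knockdown replicate 2. Without the low-count filter 2 of 19 pathway, 14 of 19 type I and 8 of 15 NF-kB genes passed. There the estimated prior degrees of freedom were infinite, against 5.23 with the filter, so a gene's own spread did not enter that test. With the filter none of the 15 NF-kB genes had an unadjusted p under 0.05 in edgeR. The calls made without the filter are not relied on here.

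The replicate numbers did not pair the libraries, as the deviations of same-numbered libraries correlated at -0.0616, 0.118 and -0.203. The replicate block gave 0 calls, and under it the GBP1 estimate was 0.57 with an adjusted p of 0.693. Control replicate 2 was the 1 library of 6 that correlated best with its own number.

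CXCL10 (1 read) and GBP4 (6 to 21 reads a library) rest on few reads.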
